A study of Mus musculus with 40 samples.

Results

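The nuclear genes for the subunits of the mitochondrial respiratory chain and the ATP synthase were followed in mouse bone marrow after cyclophosphamide. Members were the genes whose symbol begins with Nduf (complex I), Uqcr (complex III), Cox4 to Cox8 or Cox10 to Cox19 (complex IV and its assembly) or Atp5 (complex V, the ATP synthase), together with Sdha to Sdhd (complex II), Cyc1 and Cycs. The array annotation held 75 such genes on 79 probes, and 38 of them had a value in at least 3 mice of each of the 4 groups, out of 5297 genes and unnamed probes that met this condition. The 38 comprised 15 genes of complex I, 3 of complex II, 5 of complex III, 5 of complex IV, 7 of complex V and 3 assembly factors (Cox16, Ndufaf1 and Ndufaf4). The rule used symbols and the number of measured mice, and no difference between groups.

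The groups were untreated DBA/2 mice (control) and DBA/2 mice given 83 mg/kg cyclophosphamide into the peritoneum and taken at 1, 2 or 5 days. Cyclophosphamide is a drug whose metabolites cross-link DNA. Each group had 5 mice with 2 arrays per mouse. DBA/2 is an inbred strain, and every group shared it. The labels used here give neither sex nor age. RNA of unsorted bone marrow cells was labelled with Cy5 and hybridised with a common Cy3 reference. A value is thus the log ratio of a mouse over that reference, taken as log2, and cannot be set against the value of another gene.

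The respiratory chain passes electrons from NADH and succinate to oxygen and pumps protons across the inner mitochondrial membrane. Complex I oxidises NADH, complex II oxidises succinate, complex III passes electrons to cytochrome c, complex IV reduces oxygen, and the ATP synthase uses the returning protons to make ATP. In marrow, dividing precursors carry many mitochondria, while erythroid cells lose theirs as they mature. Subunits encoded by mitochondrial DNA were outside the rule.

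Arrays gave values for 4079 to 7977 of 13443 probes, and the 2 arrays of a mouse correlated at 0.683 to 0.957 across probes. Of the marker lists for marrow cells, 11 erythroid, 8 late neutrophil, 3 granulocyte precursor and 2 B cell precursor genes were measured well enough to test. Cdkn1a, a p53 target that halts the cell cycle, was higher on day 1 than in control by 1.63 ± 0.26 (log2 ± SE, adjusted p = 0.000508, limma). Control mouse 4 and day 1 mouse 1 were least like the other mice of their groups, with mean correlations of 0.284 and 0.372 over 2979 genes. Day 1 mouse 4 had the lowest mean over the members of all mice, -0.65, and was the lowest of its group in 18 of the 32 members measured in all 5 day 1 mice. The counts of members lower on day 1, and the gene lists whose day 1 counts changed by over 1.5 times, are also given without it.

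Across the 4 groups, 22 of the 38 members differed by the moderated F test (57.9%, against 30.7% of all genes tested). Averaged over the members, control mice stood at 0.15 ± 0.11, day 1 mice at -0.27 ± 0.24, day 2 mice at 0.06 ± 0.12 and day 5 mice at 0.26 ± 0.09 (SD, n = 5 mice each). The mean was lowest on day 1, and all 5 day 1 mice (-0.65 to -0.03) lay below the lowest control mouse (-0.02). The gap was narrow, with day 1 mouse 1 at -0.030 and control mouse 4 at -0.018. Each of these 2 means covers 36 of the 38 members, and the members missing differ. The heat map of all mice shows the dip on day 1 and the members without it. The day 5 mice (0.15 to 0.38) overlapped the control mice (-0.02 to 0.27).

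**Figure D1:**
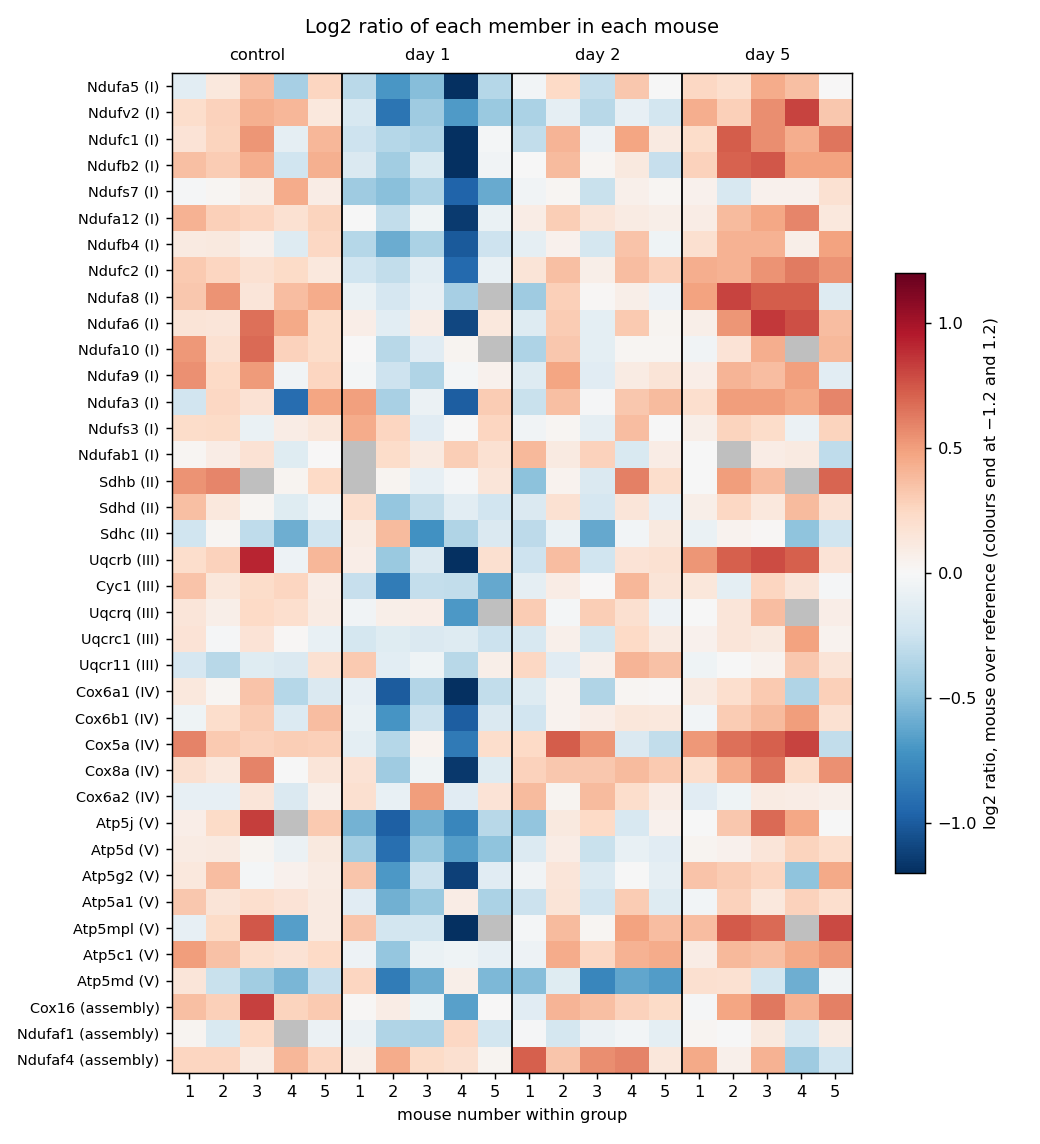
Log2 ratio of mouse over reference for the 38 tested members (rows, grouped by complex and ordered by their day 1 difference) in each of the 20 mice (columns, in groups of 5). Blue is lower and red higher than the reference, grey is no value, and colours end at -1.2 and 1.2, with values beyond these in day 1 mouse 4 alone. Most rows are blue on day 1, deepest in mouse 4, and red on day 5.

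On day 1, 21 of the 38 members (55.3%) were lower than in control and 0 were higher, while 8.38% of all genes tested were lower and 10.7% were higher (limma, adjusted p under 0.05). The fall took in 11 of 15 genes of complex I, 2 of 5 of complex III, 3 of 5 of complex IV, 4 of 7 of complex V and 1 of 3 assembly factors, but 0 of 3 of complex II. At an unadjusted p under 0.05, 26 members were lower and 0 higher, but the share of all genes at that threshold was not taken. The median difference of the members was -0.51, against -0.01 over all genes tested. All mice of day 1 lay below all mice of control in 16 members, which 6.1% of all genes tested did. Because the RNA came from mixed marrow cells, fewer cells of a type and less RNA per cell cannot be told apart.

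**Figure D2:**
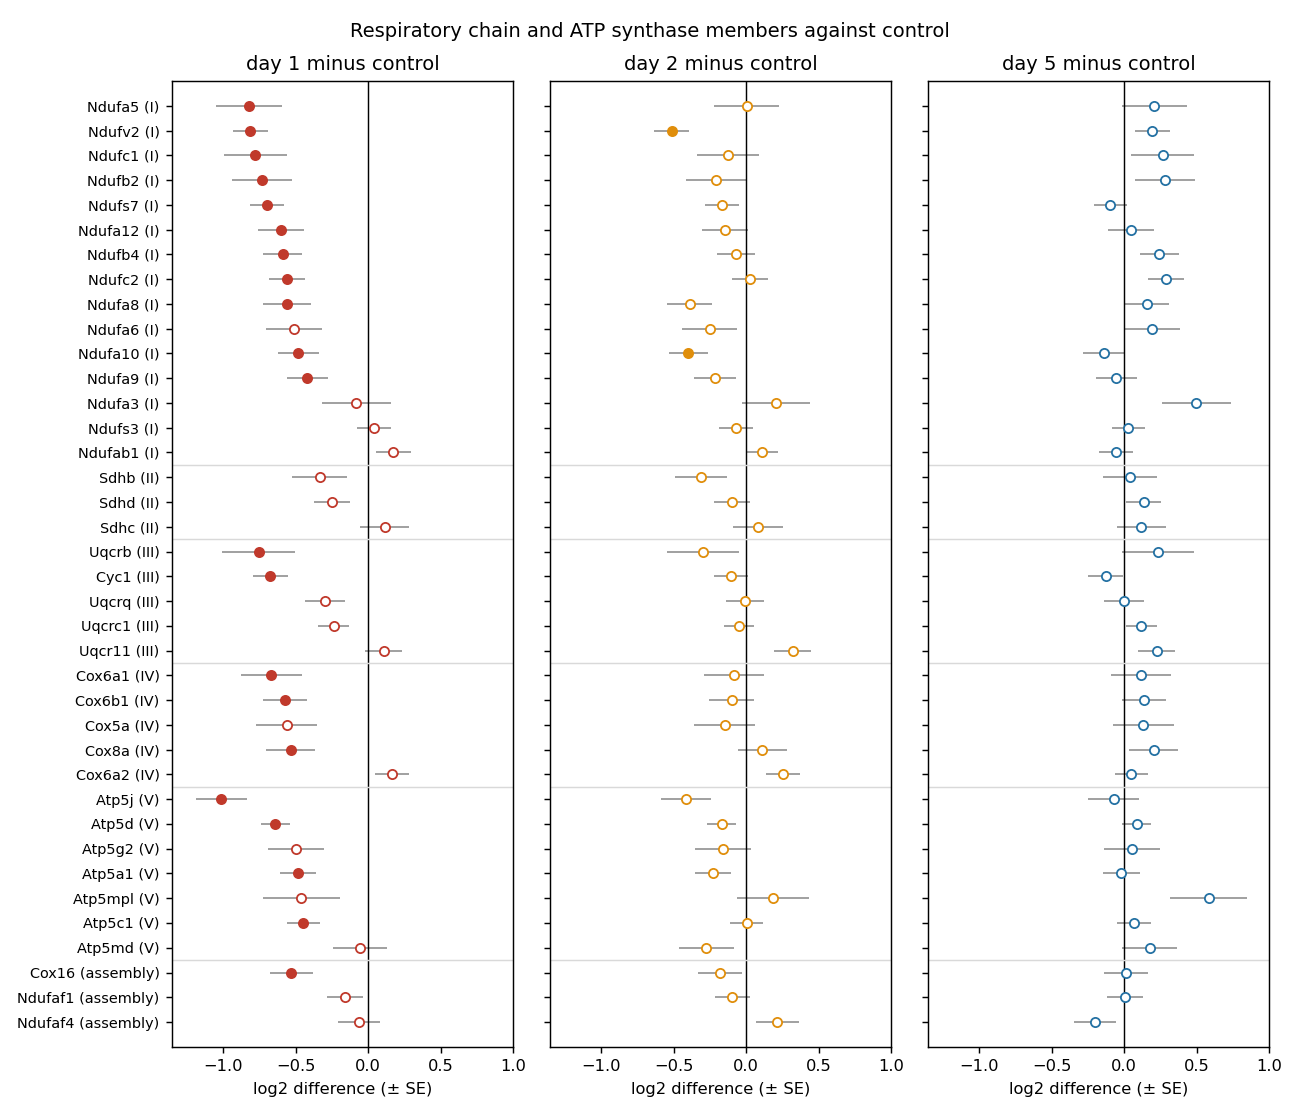
Difference from control in log2 units (points, with bars of ± 1 SE of the limma fit) for each of the 38 members on day 1, day 2 and day 5, grouped by complex. Filled points had an adjusted p under 0.05: 21 on day 1, all below 0, 2 on day 2, both below 0, and 0 on day 5.

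Complex I held the most fallen members. Ndufv2 carries an iron-sulphur cluster in the part of complex I that takes electrons from NADH. Its values were -0.19, -0.88, -0.43, -0.68 and -0.44 in the 5 day 1 mice, against 0.21, 0.28, 0.43, 0.40 and 0.13 in the control mice. The groups did not overlap, and the difference was -0.81 ± 0.12 (log2 ± SE, adjusted p = 0.00034), a fold of 1.76 if the deposited logarithms are of base 2. Ndufs7 carries the cluster that hands electrons to ubiquinone and was lower by a similar amount, -0.69 ± 0.12 (adjusted p = 0.000635). Ndufs3, another core subunit of the same arm, averaged 0.16 ± 0.23 on day 1 and 0.12 ± 0.13 in control (SD, n = 5 each) and did not pass.

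Of the accessory subunits of complex I, which surround the catalytic core, 9 fell. The differences were -0.82 ± 0.23 for Ndufa5, -0.78 ± 0.22 for Ndufc1, -0.73 ± 0.21 for Ndufb2 and -0.60 ± 0.16 for Ndufa12 (adjusted p = 0.0145, 0.0154, 0.017 and 0.0109). They were -0.59 ± 0.13 for Ndufb4, -0.56 ± 0.12 for Ndufc2 and -0.56 ± 0.16 for Ndufa8 (adjusted p = 0.00433, 0.00342 and 0.0205). The smallest were -0.48 ± 0.14 for Ndufa10 and -0.42 ± 0.14 for Ndufa9 (adjusted p = 0.0219 and 0.04). Ndufa10 and Ndufa8 had values in 4 of the 5 day 1 mice. Ndufa6 (-0.51 ± 0.19, adjusted p = 0.062), Ndufa3 (-0.08 ± 0.24) and Ndufab1 (0.17 ± 0.12) did not pass. Ndufab1 is also the acyl carrier protein of mitochondria.

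Complex II, which is also an enzyme of the citric acid cycle, had no member that passed on day 1. Sdhd, a membrane anchor of the complex, had the smallest F test p of the 3. Its values were 0.20, -0.47, -0.29, -0.13 and -0.23 in the day 1 mice, against 0.36, 0.13, 0.03, -0.14 and -0.05 in the control mice. The groups overlapped, and the difference of -0.25 ± 0.12 had an adjusted p of 0.157. Sdhb, the iron-sulphur subunit, differed by -0.33 ± 0.19 and Sdhc, the other anchor, by 0.11 ± 0.17.

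In complex III the fall was in Cyc1, which carries the haem that reduces cytochrome c, and in Uqcrb, a small subunit near the ubiquinone site. Cyc1 was at -0.28, -0.84, -0.29, -0.29 and -0.62 in the day 1 mice, against 0.34, 0.14, 0.22, 0.26 and 0.09 in the control mice. Every day 1 mouse lay below every control mouse, and the difference was -0.67 ± 0.12 (adjusted p = 0.00077). Uqcrb differed by -0.76 ± 0.25 (adjusted p = 0.0361) with day 1 mouse 4 at -1.69. Uqcrc1, a core subunit, differed by -0.24 ± 0.10 and Uqcr11 by 0.11 ± 0.13, and neither passed. Uqcrq had 2 probes that disagreed, with day 1 minus control at 0.004 on one and -0.68 on the other, so its average of -0.29 ± 0.14 cannot be read as one change.

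Of complex IV, Cox6a1, Cox6b1 and Cox8a fell. Cox6b1, a subunit on the outer face of the complex, was at -0.08, -0.71, -0.26, -0.99 and -0.17 in the day 1 mice, against -0.06, 0.21, 0.31, -0.17 and 0.37 in the control mice. The groups overlapped at 1 value on each side, and the difference was -0.57 ± 0.15 (adjusted p = 0.0118). Cox6a1 differed by -0.67 ± 0.21 (adjusted p = 0.0278) and Cox8a by -0.53 ± 0.17 (adjusted p = 0.0305). Cox5a differed by -0.56 ± 0.21 and had an adjusted p of 0.0624.

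Cox6a1 has a paralogue, Cox6a2, that is used mainly in heart and skeletal muscle. Cox6a2 averaged 0.13 ± 0.26 on day 1 and -0.04 ± 0.13 in control (SD, n = 5 each) and did not pass, with a difference of 0.16 ± 0.11. Within each mouse, Cox6a1 minus Cox6a2 averaged -0.80 ± 0.46 on day 1 (-1.47 to -0.29) and 0.03 ± 0.21 in control (-0.23 to 0.23), without overlap. It was -0.30 ± 0.32 on day 2 and 0.10 ± 0.31 on day 5. This pair was chosen after its values were seen, so the difference is given without a test. The level of the difference in a group depends on the reference, so only its change between groups can be read. No other gene pairs were set beside this one.

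The ATP synthase had the member with the largest day 1 difference. Atp5j, subunit F6 of the stalk that joins the catalytic head to the membrane part, was at -0.57, -0.98, -0.58, -0.79 and -0.33 in the day 1 mice, against 0.08, 0.23, 0.83 and 0.32 in the 4 control mice with a value. The groups lay apart, by -1.01 ± 0.17 (adjusted p = 0.000735), a fold of 2.02 if the base is 2. Atp5d, subunit delta of the rotor, was at -0.42, -0.90, -0.45, -0.66 and -0.48 in the day 1 mice, against 0.09, 0.10, 0.03, -0.07 and 0.12 in the control mice. All day 1 mice were low, and its 2 probes gave -0.60 and -0.68, for an average difference of -0.64 ± 0.10 (adjusted p = 0.000474). Atp5a1, subunit alpha of the catalytic head, differed by -0.48 ± 0.13 and Atp5c1, subunit gamma of the rotor, by -0.45 ± 0.12 (adjusted p = 0.0106 and 0.0104).

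Atp5g2, a gene for the membrane ring of the synthase, differed by -0.50 ± 0.19 (adjusted p = 0.0733) and Atp5mpl, a small membrane subunit, by -0.46 ± 0.27, and neither passed. Atp5md, another small membrane subunit, was on 8 arrays, from 5 mice, at a single value that other probes of the same array also had. Its difference of -0.06 ± 0.19 therefore rests partly on such repeated values, whose origin was not tested. Of the assembly factors, Cox16, which helps to build complex IV, fell by 0.53 ± 0.15 (day 1 minus control -0.53, adjusted p = 0.0174). The complex I assembly factors Ndufaf1 (-0.16 ± 0.12) and Ndufaf4 (-0.06 ± 0.15) did not pass.

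Without day 1 mouse 4, 17 members were lower on day 1 and the median difference was -0.40, and Cox6a1, Cox8a, Ndufa8 and Uqcrb were the calls lost. Without control mouse 4 and day 1 mouse 1, the 2 mice least like their groups, 24 members were lower and the median was -0.59. The calls of Cox6a1, Cox8a and Uqcrb were also lost without control mouse 1 or 3 or day 1 mouse 2, and that of Uqcrb without control mouse 5. Ndufa10 lost its call without control mouse 1 or 3 or day 1 mouse 2 or 3, Ndufa9 without any of these or control mouse 2 or 5, and Cox16 without control mouse 3. Of the 21 fallen members, 12 passed in every fit that was run, namely Atp5a1, Atp5c1, Atp5d, Atp5j, Cox6b1, Cyc1, Ndufa12, Ndufb4, Ndufc1, Ndufc2, Ndufs7 and Ndufv2.

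**Figure D3:**
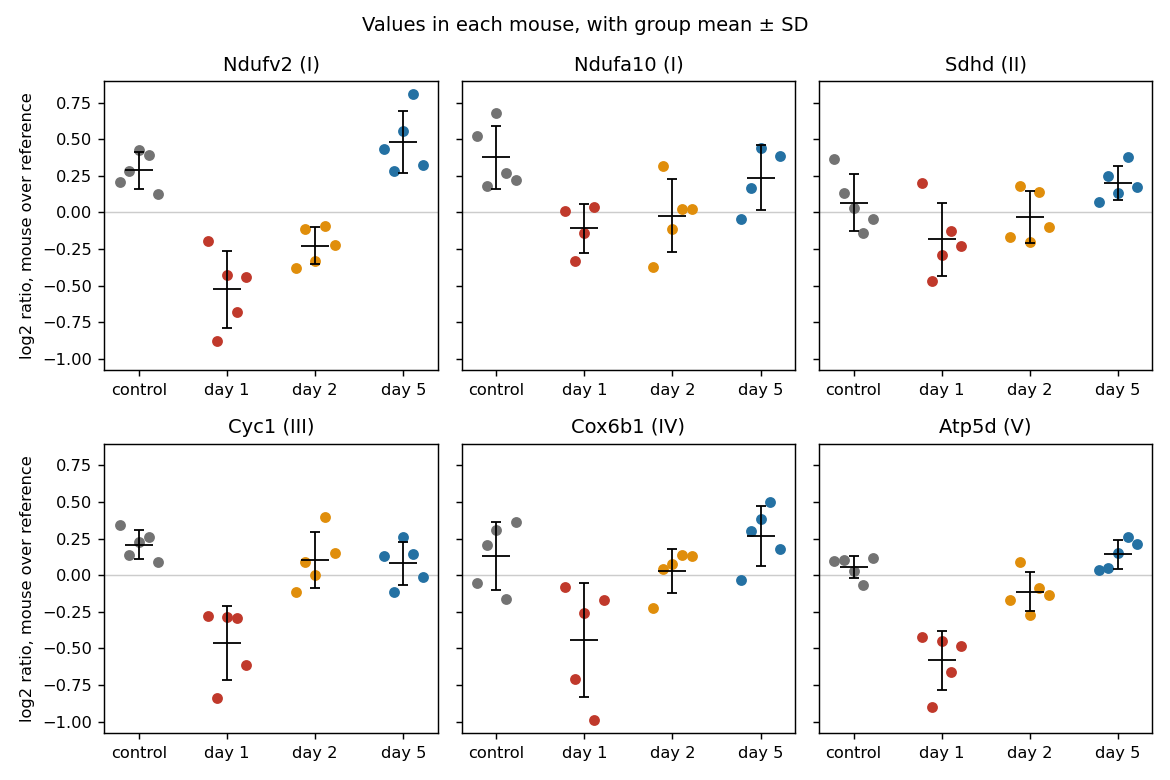
Log2 ratio of mouse over reference (vertical axis) in each mouse (points) of control, day 1, day 2 and day 5 for the member of each complex with the smallest F test p and for Ndufa10, with the group mean ± SD in black. Ndufv2, Ndufa10, Cyc1 and Atp5d have all measured day 1 mice below all control mice, and Ndufv2 is the one of the 6 whose day 2 mice also all lie below control.

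The promoters of 3 fallen members with at least 2 matches to sequences known from respiratory genes, and that of Ndufv2, the member with the smallest F test p, are shown because these genes moved together. NRF1, GABP (an ETS factor) and YY1 are transcription factors known to act on nuclear genes of the respiratory chain. The letters searched on both strands were GCGCA, any base and GCGC for NRF1, CCGGAAG for ETS factors and AAGATGGC for YY1, in the 250 bases before the annotated start (RefSeq, GRCm38.p6), with a match that reads the same on both strands counted once. A gene with several annotated starts, as Atp5j has, counted as holding a motif where any of its promoters did, and the one of Atp5j with matches is shown. Capitals mark the matches, each sequence runs 5′ to 3′ on the gene's strand, and all 4 genes lie on the minus strand.
Cox6a1, chr5:115348959-115349208: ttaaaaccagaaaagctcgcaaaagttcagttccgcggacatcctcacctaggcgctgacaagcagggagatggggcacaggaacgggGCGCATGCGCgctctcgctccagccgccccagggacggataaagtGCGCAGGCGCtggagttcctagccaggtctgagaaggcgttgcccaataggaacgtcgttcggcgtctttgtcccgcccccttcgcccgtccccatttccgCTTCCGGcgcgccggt
Ndufb4, chr16:37654369-37654618: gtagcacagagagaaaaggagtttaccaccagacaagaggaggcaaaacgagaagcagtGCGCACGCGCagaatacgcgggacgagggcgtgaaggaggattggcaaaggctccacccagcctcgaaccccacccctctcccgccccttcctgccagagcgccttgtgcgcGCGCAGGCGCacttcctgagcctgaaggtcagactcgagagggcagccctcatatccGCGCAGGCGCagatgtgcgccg
Atp5j, chr16:84834977-84835226: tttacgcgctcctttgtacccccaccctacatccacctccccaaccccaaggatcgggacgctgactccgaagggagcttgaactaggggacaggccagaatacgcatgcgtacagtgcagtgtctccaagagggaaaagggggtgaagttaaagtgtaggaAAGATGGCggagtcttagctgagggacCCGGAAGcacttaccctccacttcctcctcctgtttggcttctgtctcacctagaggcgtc
Ndufv2, chr17:66101560-66101809: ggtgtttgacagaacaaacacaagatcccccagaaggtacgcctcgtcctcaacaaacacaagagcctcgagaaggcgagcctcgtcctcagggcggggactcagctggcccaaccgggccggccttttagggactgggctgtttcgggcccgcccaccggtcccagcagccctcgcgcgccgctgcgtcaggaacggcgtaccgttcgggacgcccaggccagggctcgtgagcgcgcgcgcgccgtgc

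In Cox6a1 the NRF1 letters begin at -162 and -117 from the start and the ETS letters, on the opposite strand, at -16. Ndufb4 has the NRF1 letters at -191, -79 and -22, and Atp5j has the YY1 letters at -88 and the ETS letters at -61. None of the 3 was found in this window of Ndufv2. A promoter was matched for 31 of the 38 tested members and 64 of the 75 in the annotation. The NRF1 letters were in 27.8% of the 18 fallen members with a promoter and in 23.1% of the 13 other tested members, against 4.23% of 27025 genes. Over all 64 members with a promoter, tested or not, the NRF1 letters were in 15.6%, the ETS letters in 20.3% and the YY1 letters in 1.56%. The ETS letters were in 22.2% of the fallen and 30.8% of the other tested members, against 7.83% of genes, and the YY1 letters in 5.56% and 0%, against 1.83%. These are matches of letters and say nothing of binding.

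By day 2 fewer members passed against control than on day 1, though 27 of the 38 differences were still below 0 and 11 above. In day 2 marrow 2 members were lower than control and 0 were higher, which is 5.26% of the members, against 9.61% lower and 9.61% higher among all genes tested. At an unadjusted p under 0.05, 4 members were lower and 2 higher, with no share of all genes to set beside them. The median difference was -0.10. The 2 lower members were of complex I. Ndufv2 was at -0.38, -0.11, -0.33, -0.10 and -0.22 in the day 2 mice, all below the lowest control mouse, with a difference of -0.51 ± 0.12 (adjusted p = 0.00513). Its difference from control kept an adjusted p of 0.019 or less on days 1 and 2 in every fit that was run.

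Ndufa10, an accessory subunit of complex I, was at 0.01, -0.33, -0.14 and 0.04 in the 4 day 1 mice with a value and at -0.37, 0.32, -0.11, 0.03 and 0.03 in the day 2 mice. The control mice were at 0.52, 0.18, 0.68, 0.27 and 0.22. On day 2 mouse 2 alone reached into the control range, and the difference was -0.40 ± 0.13 (adjusted p = 0.0402). It lost this call when control mouse 1, control mouse 3, day 2 mouse 1, day 2 mouse 3 or day 2 mouse 4 was left out, so that 1 member, Ndufv2, was then lower.

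On day 5 no member passed against control in either direction by limma, against 1.72% of all genes lower and 0.906% higher. The median difference was 0.12. No share of all genes was taken at an unadjusted p under 0.05, where 0 members were lower and 3 higher. The 3 were Ndufc2 (0.29 ± 0.12, adjusted p = 0.341), Atp5mpl (0.58 ± 0.27, adjusted p = 0.403) and Ndufa3 (0.50 ± 0.24, adjusted p = 0.431). In 1 member, Ndufc2, all day 5 mice (0.42 to 0.62) lay above all control mice (0.13 to 0.31), which 3.13% of all genes tested did.

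The change between the treated days was tested in the same fit. The comparisons with day 1 use the same day 1 mice as the fall on day 1, mouse 4 among them. Low values in those mice enter all of these comparisons, which are therefore not independent. On day 2 against day 1, 7 members were higher and 0 lower (18.4%), among 1.36% of all genes higher and 0.736% lower. They were Ndufc2 (0.58 ± 0.12), Ndufs7 (0.53 ± 0.12) and Ndufb4 (0.52 ± 0.13) of complex I, Cyc1 (0.57 ± 0.12) of complex III, Cox8a (0.65 ± 0.17) of complex IV, and Atp5d (0.47 ± 0.10) and Atp5c1 (0.45 ± 0.12) of complex V. Their adjusted p ran from 0.00894 for Cyc1 to 0.0425 for Cox8a. The count was 4 without day 1 mouse 2 or 4 or without day 2 mouse 2, 4 or 5, and 0 when the mice of these 2 days alone were fitted.

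On day 5 against day 1, 25 members were higher and 0 lower (65.8%), among 12.2% of all genes higher and 13.1% lower. The median difference was 0.56, and all day 5 mice lay above all day 1 mice in 16 members, against 8.21% of all genes. By complex, 10 of 15 genes of complex I, 1 of 3 of complex II, 3 of 5 of complex III, 4 of 5 of complex IV, 6 of 7 of complex V and 1 of 3 assembly factors were higher. Ndufv2, at 0.43, 0.28, 0.56, 0.81 and 0.33 in the day 5 mice, had the smallest p (difference 1.01 ± 0.12, adjusted p = 4.78e-06).

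The other complex I members that rose between day 1 and day 5 were Ndufc1 (1.04 ± 0.22), Ndufa5 (1.03 ± 0.23), Ndufb2 (1.02 ± 0.21), Ndufc2 (0.85 ± 0.12), Ndufb4 (0.83 ± 0.13), Ndufa8 (0.71 ± 0.16), Ndufa6 (0.70 ± 0.19), Ndufa12 (0.65 ± 0.16) and Ndufs7 (0.60 ± 0.12). Of complexes II and III, Sdhd (0.38 ± 0.12), Uqcrb (0.99 ± 0.25), Cyc1 (0.54 ± 0.12) and Uqcrc1 (0.36 ± 0.10) rose. Of complex IV and its assembly, Cox6a1 (0.78 ± 0.21), Cox8a (0.74 ± 0.17), Cox6b1 (0.71 ± 0.15), Cox5a (0.69 ± 0.21) and Cox16 (0.54 ± 0.15) rose. Of the ATP synthase, Atp5mpl (1.04 ± 0.28), Atp5j (0.94 ± 0.16), Atp5d (0.72 ± 0.10), Atp5g2 (0.55 ± 0.19), Atp5c1 (0.52 ± 0.12) and Atp5a1 (0.46 ± 0.13) rose. All 25 had an adjusted p of 0.0394 or less, and 20 passed in every fit that was run. With single mice left out, Atp5g2 lost its call without day 1 mouse 2, 3 or 4 or day 5 mouse 1, 2, 3 or 5, Cox5a without day 1 mouse 4 or day 5 mouse 4, Sdhd without day 1 mouse 2 or 3 or day 5 mouse 4, and Uqcrc1 without day 5 mouse 4. Ndufs3 (-0.01 ± 0.12), Sdhc (0.00 ± 0.17) and Cox6a2 (-0.11 ± 0.11) were among the 13 that did not pass.

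On day 5 against day 2, Ndufv2 (0.71 ± 0.12, adjusted p = 0.000219) and Ndufa8 (0.54 ± 0.15, adjusted p = 0.0139) were higher and the assembly factor Ndufaf4 was lower (-0.42 ± 0.15, adjusted p = 0.0447), among 10.3% of all genes higher and 10.5% lower. The Ndufaf4 call was lost in 15 of the 34 other fits, among them those without control mouse 1, 2 or 5, day 2 mouse 1, 3 or 4 or day 5 mouse 2, 4 or 5, and Ndufa8 lost its call without day 2 mouse 1. Without day 1 mouse 4, 6 members were higher, and without day 2 mouse 2 or 4 the number was 4. The difference of Ndufv2 on day 2 against day 1 was 0.30 ± 0.12 (adjusted p = 0.249), so its call lay between day 2 and day 5. Whether its time course differs from those of the other members was not tested.

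Values of other groups of genes moved beside the members. Over all genes tested, 8.38% were lower and 10.7% higher on day 1, and 9.61% were lower and 9.61% higher on day 2. The cytosolic ribosome, whose genes were 27 in number, had 10 lower and 0 higher on day 1 and a median difference of -0.43, and its mean ran from -0.79 to 0.04 in the day 1 mice, lowest in mouse 4, against -0.07 to 0.51 in the control mice. Rpl28 (-0.84 ± 0.21), Rps18 (-0.76 ± 0.19) and Rpl13a (-0.65 ± 0.17) had the smallest p. The mitochondrial ribosome, which makes the subunits encoded by mitochondrial DNA, had 8 of 29 genes lower and 4 higher, with Mrpl18 (-0.72 ± 0.15) and Mrpl58 (-0.44 ± 0.09) lower and Mrpl38 (0.59 ± 0.13) higher. Its mean ran from -0.24 to -0.03 in the day 1 mice, against 0.01 to 0.20 in the control mice. Without day 1 mouse 4, 5 of 24 cytosolic ribosome genes were lower on day 1 and 0 higher, with a median difference of -0.22, and 6 of 27 mitochondrial ribosome genes were lower and 3 higher. The day 1 mean over the list was then -0.10 ± 0.18 for the cytosolic ribosome (-0.24 ± 0.35 with the mouse) and -0.05 ± 0.03 for the mitochondrial ribosome (-0.08 ± 0.09 with it).

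Of 10 mitosis genes, 7 were lower on day 1 and 7 on day 2. Their mean ran from -0.75 to -0.33 in the day 1 mice and from -0.96 to -0.35 in the day 2 mice, against -0.05 to 0.23 in the control mice. Cdk1, the kinase that starts mitosis, differed by -0.75 ± 0.15 on day 1 and -0.77 ± 0.15 on day 2. The mean of the mitosis genes was below that of control on both days. The members' mean was -0.27 ± 0.24 on day 1 and 0.06 ± 0.12 on day 2, against 0.15 ± 0.11 in control. Whether the course of the mitosis genes is linked to that of the members was not tested. Of cell type markers on day 1, 2 of 3 granulocyte precursor, 2 of 3 monocyte and 2 of 2 B cell precursor genes were lower, 2 of 5 macrophage, 2 of 5 endothelial and 2 of 4 stromal genes were higher, and of 11 erythroid genes 0 were lower and 1, Alas2, was higher. The erythroid mean ran from -0.78 to -0.18 on day 1, against -0.37 to -0.20 in control. Late neutrophil genes were higher in 1 and lower in 0 of 8 on day 1, mature B and plasma cell genes higher in 2 of 4, megakaryocyte genes in 1 of 3 and T and NK cell genes in 0 of 2. On day 2, 5 of 8 late neutrophil and 4 of 11 erythroid genes were lower and 5 of 5 macrophage genes were higher. Without day 1 mouse 4, the single calls on day 1 among late neutrophil and megakaryocyte genes were lost (0 of 7 and 0 of 3), and 7 of 10 mitosis genes were lower.

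Most of the same lists also moved between day 1 and day 5, when the members were higher. Over all genes tested, 12.2% were higher and 13.1% lower on day 5 than on day 1. On day 5 against day 1, 15 of 27 cytosolic ribosome genes were higher and 0 lower (median 0.61), and 10 of 29 mitochondrial ribosome genes were higher and 4 lower. Higher too were 7 of 10 mitosis, 3 of 3 granulocyte precursor (median 1.26) and 2 of 3 monocyte genes. Lower were 5 of 5 macrophage (median -0.88), 3 of 4 mature B and plasma cell, 3 of 4 stromal and 2 of 5 endothelial genes. Of 8 late neutrophil genes 1 was higher and 3 were lower, and of 11 erythroid genes 0 were higher and 1 was lower. Of 2 B cell precursor genes 0 were higher and 0 lower (median -0.36), and 2 were still lower than control on day 5. Of 3 megakaryocyte genes 1 was lower, and of 2 T and NK cell genes 1 was higher. Without day 1 mouse 4, 10 of 24 cytosolic ribosome genes were higher on day 5 than on day 1. The part of these cell types and of the ribosomal genes in the members' fall on day 1 and rise to day 5 was not tested.

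**Figure D4:**
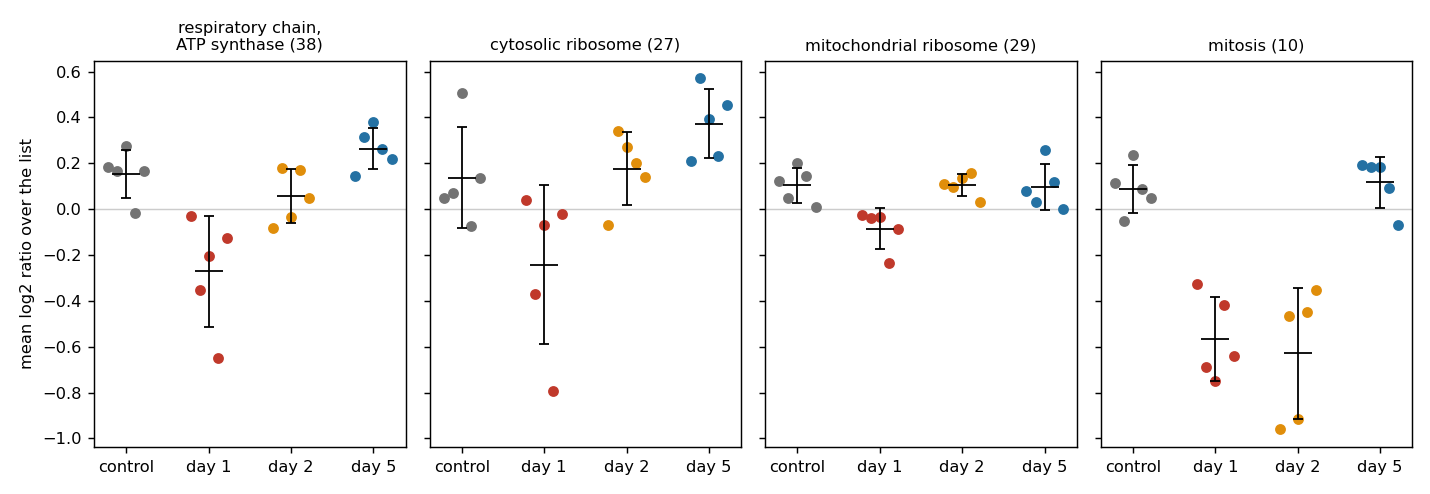
Mean log2 ratio over the genes of a list (vertical axis) in each mouse (points) of control, day 1, day 2 and day 5, with the group mean ± SD in black, for the 38 members and for 27 cytosolic ribosome, 29 mitochondrial ribosome and 10 mitosis genes. The members and the cytosolic ribosome are low on day 1, with mouse 4 lowest in both, and the mitosis genes are low on days 1 and 2.

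Among genes that feed the chain, 2 of 4 measured genes of the citric acid cycle and pyruvate entry were lower on day 1 and 0 higher. They were Mpc1 (-0.63 ± 0.11, adjusted p = 0.00104), part of the mitochondrial pyruvate carrier, and Cs (-0.55 ± 0.17, adjusted p = 0.0303), citrate synthase. Both were higher on day 5 than on day 1, by 0.86 ± 0.11 and 0.49 ± 0.17. With day 1 mouse 4 left out, 3 of the 4 were lower on day 1, Idh3a being added. Of 11 assembly factors outside the rule, 1 was lower on day 1, Sdhaf2 (-0.29 ± 0.10), which attaches FAD to complex II. This is near the share of all genes tested that were lower on day 1, 8.38%. On day 2, when 9.61% of all genes were lower, Sdhaf2 (-0.52 ± 0.10, adjusted p = 0.00103) and Coq10b (-0.32 ± 0.11, adjusted p = 0.0446) were lower. Without day 1 mouse 4, 2 of 9 were lower on day 1, Sdhaf2 and Hccs, which attaches haem to cytochrome c. Of 2 genes of mitochondrial peroxide defence, Gpx4, a lipid peroxidase, was lower on days 1 and 2, with differences of -0.68 ± 0.16 and -0.56 ± 0.16.

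The other 37 members of the annotation were not tested. No mouse had a value for 21 of them, among them Atp5b, Cox5b, Cox7a2, Ndufb8 and Ndufs4. The remaining 16 had values in some mice. Cycs, cytochrome c itself, had values in 2 day 1 mice (mean -0.39), 3 day 2 mice (0.35) and 3 day 5 mice (0.59), against 3 control mice (0.30). Cox6c had values in 1 day 1 mouse (-1.68) and 4 control mice (0.13), and Ndufa4, now counted to complex IV, in 2 day 1 mice (-0.07) and 3 control mice (0.36). Others were higher on day 1. Ndufaf7 had values in 2 day 1 mice (0.85) and 1 control mouse (-0.13). Cox4i1 had them in 2 day 1 mice (0.27) and 2 control mice (0.05), and Ndufb10 in 1 day 1 mouse (0.12) and 1 control mouse (-0.03). Cox7a1, the muscle isoform of its subunit, had values in all 5 day 1 mice (-0.15) and 4 control mice (-0.30) but in 0 day 5 mice.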

How the data were processed

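The authors deposited 1 value per probe and array, taken as a log2 ratio of mouse (Cy5) over a reference (Cy3), dyes per the labels. Scanner, background correction, normalization and filters were not given in the sources used here. Both the log base and the centring step are unknown. Array medians lay between -0.015 and 0.007, and natural logarithms would make each fold larger. The labels call the reference a pool of untreated marrow, but its treatment field names cyclophosphamide. If the same pool was used on every array, it cancels in differences between groups. Between 40.7% and 69.7% of probes per array were blank, and none was filled in. No value column was without a sample.

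Arrays were averaged within mouse and probes within gene. With at least 3 mice per group required, 5297 genes and unnamed probes (3926 named, 1371 unnamed) were fitted in limma 3.58.1 (R 4.3.3) over all 20 mice with 1 mean per group, empirical Bayes moderation (prior degrees of freedom 7.80) and Benjamini-Hochberg adjustment over all of them. An adjusted p under 0.05 made a call, and SE is that of the fit. With 5 mice per group the number of mice limits precision. The p-values set a difference between groups against the moderated spread between mice within groups. Symbols came from the platform annotation, 10028 of 10032 single-symbol probes being updated through RefSeq. Of 200 genes changed in simulated data for day 1 against control (5297 genes), 56% were recovered at a log2 change of -0.5 and 98% at -1, with 8 false calls.

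The members and lists were chosen with earlier results of these data known. Every member that passed a comparison was named (where none passed, the 3 with the smallest p), and values per mouse were given for members passing in at least 2 comparisons with control and for the member of each complex with the smallest F test p. Atp5j was added for its size of change, after its values were seen. Up to 3 passing genes of a list were named. The alternatives were single arrays, the mouse as a random block, other minimum numbers of mice, median centring, quantile normalization, leaving out shared values, single probes, a robust prior, a replicate block, the 2 groups alone, and each mouse left out. Leaving out 2 or 3 mice together, and day 1 mouse 4 for the lists, was chosen after seeing the data. Matplotlib 3.10.9 drew the figures.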

Additional observations from a re-analysis of the deposited data

Results flagged for a closer look

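In 18 of 152 sets of 4 or 5 mice (1 member in 1 group) the highest or lowest mouse stood apart from the rest by Dixon's test, where chance gives about 7.6, and 8 of the 18 were day 1 mouse 4. In that mouse the low values were -2.01 for Ndufa5, -1.65 for Ndufc1, -1.57 for Ndufb2, -1.15 for Ndufa12, -1.09 for Ndufa6, -0.93 for Ndufc2, -0.69 for Uqcrq and -0.65 for Cox16. In the same mouse Atp5a1 was at 0.09 and Ndufa10 at 0.04.

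The other mice that stood apart were low for Atp5c1 in day 1 mouse 2 (-0.46), Atp5g2 in day 5 mouse 4 (-0.49), Cox5a in day 5 mouse 5 (-0.30), Cox6b1 in day 2 mouse 1 (-0.23) and Ndufb2 in control mouse 4 (-0.24). They were high for Cox16 in control mouse 3 (0.82), Cox5a in control mouse 1 (0.60), Ndufs7 in control mouse 4 (0.45), Ndufs3 in day 2 mouse 4 (0.37) and Uqcrc1 in day 5 mouse 4 (0.49).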

How the results depend on the processing

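The fall on day 1 and the rise from day 1 to day 5 kept their direction in every fit: 15 to 24 members were lower with 1 mouse left out (15 without control mouse 3) and 17 to 24 under the other settings, and 22 to 27 were higher on day 5 than on day 1. The fall and the rise use the same day 1 mice and are not independent. The smaller counts moved. The 2 members lower on day 2 than in control became 4 after quantile normalization and 1 with the replicate block, and 1 to 3 with 1 mouse left out. No member was higher on day 2, against 1 from technical replicate 2 alone, with the mouse as a random block and without day 1 mouse 4, day 2 mouse 2 and day 5 mouse 4, and 0 to 1 with 1 mouse left out (1 without control mouse 5 or day 2 mouse 2). The 7 higher on day 2 than on day 1 became 13 with the random block, 0 with the 2 groups alone and 2 without those 3 mice, and 4 to 9 with 1 mouse left out. From day 2 to day 5, the 1 lower member became 0 from technical replicate 1 alone, with at least 2 mice, after median centring or quantile normalization, with the 2 groups alone and without those 3 mice, and 0 to 1 with 1 mouse left out. The 2 higher members became 1 from technical replicate 2 alone, 5 with the random block, 4 with the 2 groups alone, 9 without those 3 mice and 1 to 6 with 1 mouse left out.

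Over all genes, 139 calls on day 5 against control became 210 with the random block, and 111 calls on day 2 against day 1 became 241 with it and 52 with the 2 groups alone. With 1 mouse left out they ran from 611 (without day 1 mouse 3; 641 without day 1 mouse 2) to 1313 on day 1, 592 (without day 2 mouse 1) to 1123 on day 2, and 77 to 167 (without day 5 mouse 4) for day 2 against day 1. The cause was not tested. Same-numbered mice correlated in their deviations at -0.39 to 0.33, with 8 of 30 pairs over 0.1. Their mean was 0.029, against -0.007 for other pairs, and the numbers were not used as pairs. Whether equal numbers mark a shared batch was not tested. The replicate block changed no other count of members. No result changed sign.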

Other observations

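Few genes passed in the short lists of fuel use, carriers and gene regulators. Over all genes tested, 10.7% were higher and 8.38% lower on day 1, and 9.61% higher and 9.61% lower on day 2. No list was tested against these shares. Of 6 fatty acid oxidation genes 1 was higher on day 1 and 0 lower, Echs1 (0.60 ± 0.12, adjusted p = 0.00164), a hydratase of that pathway, and on day 2 Etfb (0.49 ± 0.14, adjusted p = 0.0175), which passes electrons towards ubiquinone, was higher as well. Of 7 glycolysis genes, Slc2a1, a glucose transporter, was higher on day 1 (0.51 ± 0.12) and day 2 (0.59 ± 0.12), and Pgam1 was lower on day 1 (-0.57 ± 0.18). Of 3 regulators of mitochondrial DNA and respiratory genes, Polg, the mitochondrial DNA polymerase, was higher on day 1 (0.51 ± 0.13) and day 2 (0.44 ± 0.13), and 0 were lower. Of 5 carriers and pores, Slc25a13, an aspartate-glutamate carrier, was higher on day 1 (0.71 ± 0.20, adjusted p = 0.0175). Another carrier, Slc25a11, was lower on day 2 (-0.34 ± 0.12, adjusted p = 0.0499).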
